A study of Mus musculus with 8 samples.

Results

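The insulin-like growth factor (IGF) system of the adult mouse tibia was described through 10 genes of the 31053 in the table, which are the ligands Igf1 and Igf2, the receptors Igf1r and Igf2r, and the binding proteins Igfbp2, Igfbp3, Igfbp4, Igfbp5, Igfbp6 and Igfbp7. They were chosen by name, and none of them was used to define a cell population. Single-cell RNA was counted in tibial cells of 8-week-old (P56) mice that carried COL10A1cre, the R26-tdT reporter, the Col1a1-2.3-GFP transgene and the MMP14 F/+ genotype. All the mice carried 1 floxed Mmp14 allele, no other genotype was analysed here, and no treatment was given. Col10a1-Cre acts in hypertrophic chondrocytes (HCs) and switches on tdTomato in them and in their descendants, and the Col1a1 fragment drives GFP in osteoblasts. Cells from 3 mice were pooled, and were released by enzymes from the spongy bone with some growth plate, after the early trypsin fractions had been discarded. The 8 labelled samples form 1 group, and their barcodes lie in 1 table without a mark of the sample or mouse. There are thus no replicates, and no test or p-value was computed.

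IGF1 and IGF2 are secreted hormones and local growth factors that drive growth through the receptor tyrosine kinase IGF1R. IGF2R binds IGF2 and carries it to lysosomes, and IGF-binding proteins hold the ligands in the blood and the matrix, prolonging, blocking or localising their action until proteases cut them. In bone, growth hormone and locally made IGF1 promote lengthening in the growth plate and bone formation, and IGFBP4 and IGFBP5 are among the targets of the pappalysins PAPP-A and PAPP-A2.

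A barcode was kept when it held at least 1600 genes. Of 12564 barcodes, 4472 were kept, with a median of 10451.5 unique molecular identifiers (UMIs, each a counted transcript molecule). Cells were sorted into 9 gates by raw UMIs of marker genes, and a cell could pass several. The gates held 243 growth-plate chondrocytes (Col2a1 at least 10 with Prg4 at most 1), 79 hypertrophic chondrocytes (Col10a1 and Ihh at least 5 together), 197 articular-type chondrocytes (Prg4 and Cilp at least 2 together, with Acan), 54 osteoblasts (Bglap at least 20), 23 stromal cells (Cxcl12 at least 20, with Lepr and Adipoq at least 2 together), 164 fibroblasts (Dcn and Col3a1 at least 3 each), 89 endothelial cells (Cdh5), 32 mural cells of vessel walls (Rgs5 at least 3) and 3286 blood cells (Ptprc). The label of the samples is chondro-osteogenic, but most kept barcodes carried the pan-leukocyte gene Ptprc. All 6 of the markers listed for each population, none used in its gate, were found in it, and at least 5 of the 6 were in over 25% of cells except in the fibroblast gate. There only Lum (64.6% of cells) and Fbln1 (26.8%) passed, and the tendon markers Scx and Tnmd were in 24.4% and 8.54%. Fibroblast is therefore used below as the name of the Dcn and Col3a1 gate. Ptprc UMIs were also present in 47 of 89 cells of the endothelial gate, and every hypertrophic cell passed another gate, 43 of them the growth-plate gate and 35 the articular gate.

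Levels are UMIs summed over the cells of a gate per 1000000 UMIs of those cells (CPM), with an exact 95% Poisson interval. Ratios between gates leave out cells in both gates and carry an exact conditional 95% interval. A difference was called where it reached 2-fold and its interval left out 0 on the log2 scale, among genes with at least 50 UMIs in both gates together. All intervals cover counting error only, not the spread between cells or mice. Counts come from the 3′ end of transcripts, so levels are compared between populations for 1 gene and never between genes.

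The 10 genes differed widely in how many cells held them. Igf1r was found in 1896 of the 4472 kept cells (42.4%), Igfbp4 in 1489 (33.3%), Igf2r in 1068 (23.9%) and Igfbp7 in 664 (14.8%). Igfbp5 was found in 251 cells, Igfbp6 in 200 and Igf1 in 189. Igfbp3 was held by 25 cells, Igfbp2 by 11 and Igf2 by 4. The plot of levels across the gates separates receptors, which were detected everywhere, from Igf1 and Igfbp3 to Igfbp7, which ranged over orders of magnitude.

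**Figure D1:**
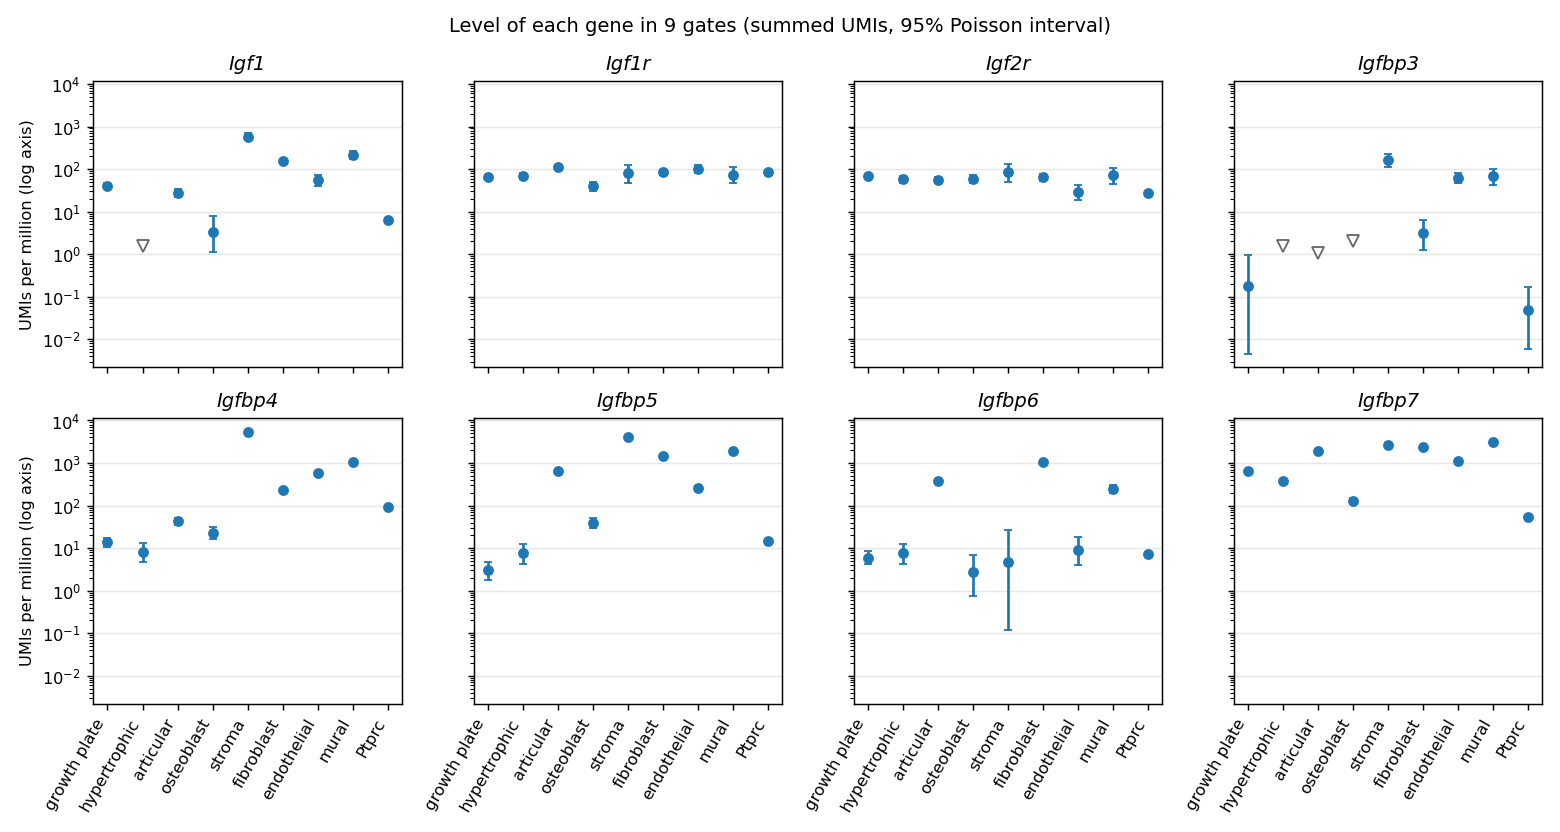
Level of 8 IGF genes in the 9 gates, as summed CPM on a log axis (points, with 95% Poisson intervals); open triangles mark gates with 0 UMIs, placed at the limit that 3 counts allow. Igf1r stays between 39.4 and 111 in every gate, while Igfbp4 spans 8.11 in the hypertrophic gate to 5479 in the stroma gate.

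Igf1, the growth-hormone-responsive ligand, lies at chr10:87858265-87937042 on the plus strand (GRCm38) and was highest in the stroma. Its level there was 578 CPM (95% interval 481 to 690), and 21 of 23 cells held it, at 0 to 21 UMIs per cell with a median of 4. The mural gate followed with 216 (168 to 273; 13 of 32 cells) and the fibroblast gate with 158 (142 to 175; 39 of 164 cells). Mesenchymal cells of the marrow and vessel wall thus stood above the skeletal cells proper. The endothelial gate was at 55.6 (8 of its 42 cells without Ptprc held Igf1), the growth-plate gate at 41.2 (36.0 to 46.8; 44 of 243 cells), and the interval of the ratio of these neighbours included 0. The articular gate was at 27.6, but 45.5% of its UMIs came from 1 cell, and its level without that cell was 15.1. Osteoblasts held 5 Igf1 UMIs in 3 of 54 cells, a level of 3.39 (1.10 to 7.92) that could not be told from the 6.21 of the Ptprc gate.

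No Igf1 UMI was seen in any of the 79 hypertrophic cells, at a median depth of 24233 UMIs per cell. A count of 0 allows a level of up to 1.52 CPM and a share of up to 3.80% of cells with an Igf1 UMI, which limits detection and not the share of cells that express the gene. Igf1 was in 0.741% of cells of the neutrophil gate, taken as the background of free RNA. Within the growth-plate gate, the 43 cells that were also hypertrophic held 0 Igf1 UMIs and the other 200 held 233.

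Among growth-plate chondrocytes, Igf1 followed Ucma, which encodes a matrix protein of resting-zone and upper growth-plate cartilage. Cells with at least 5 Ucma UMIs held 231 Igf1 UMIs in 42 of 172 cells, at 57.9 CPM (50.7 to 65.9). Cells below that held 2 UMIs in 2 of 71 cells, at 1.19. The log2 ratio was 5.60 (3.73 to 8.65), and the lower level was at that of the neutrophil gate, 1.47. Cells with at least 2 UMIs of cell-cycle genes had 12.1 against 52.3 in the others, a log2 ratio of 2.11 (1.43 to 2.87) in favour of the cells outside the cycle. Of the 71 cells below 5 Ucma UMIs, 51 also passed another gate, as did 50 of the 172. The 43 growth-plate cells that were also hypertrophic and the 25 that were also osteoblasts held 0 Igf1 UMIs. How far the Ucma split repeats these overlaps was not tested. The splits by Ucma and by cycle were chosen after values had been seen.

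In the blood gates, Igf1 was held mainly by macrophages (C1qa, C1qb and C1qc at least 5 together). There it reached 179 CPM (149 to 212) in 39 of 66 cells, and no cell held more than 8.53% of its UMIs. B-lineage cells were at 10.4, with 64% of UMIs in 1 cell. The log2 ratio of macrophages over B-lineage cells was 4.19 (3.80 to 4.58). Osteoclasts, the bone-resorbing cells, were at 51.8, from 2 of 24 cells. Neutrophils were at 1.47, T cells at 6.65 and plasmacytoid dendritic cells at 13.7.

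Igf2, the mainly fetal ligand, lies at chr7:142650766-142666816 on the minus strand and was near absent from the counts. It had 4 UMIs in 4 of the 4472 cells, and no gate held more than 2. The protein-coding gene Gm49394 overlaps Igf2 on the same strand and is among the counted genes. Its part in the low Igf2 count was not tested. H19, the imprinted noncoding RNA beside Igf2, was detected in 98 of 243 growth-plate cells at 133 CPM, against 4.56 in the hypertrophic gate.

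Igf1r (chr7:67952827-68233668, plus strand) was detected in all 9 gates and varied little. From the highest level down it was at 111 CPM in the articular gate (99.2 to 124), 103 in the endothelial, 83.9 in the Ptprc, 83.4 in the fibroblast, 79.9 in the stroma, 74.1 in the mural, 68.4 in the hypertrophic, 66.9 in the growth-plate and 39.4 (29.9 to 50.9) in the osteoblast gate. In the endothelial gate 33.7% of the UMIs came from 1 cell, and the level without it was 68.9. From the articular down to the growth-plate gate the counting intervals did not separate most neighbours, and osteoblasts stood lowest.

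The blood gates differed more in Igf1r than the skeletal gates did. Neutrophils were at 141 CPM (136 to 146), with a UMI in 75.1% of 1350 cells, and B-lineage cells at 29.4 (26.1 to 33.1), with a UMI in 16.7% of 827 cells. Their log2 ratio was 3.48 (3.20 to 3.79), without cells in both gates. With every cell thinned to 3000 UMIs the shares were 34.5% and 6.58%, so that the order of the shares held at equal depth. Within the neutrophil gate, cells with at least 10 Ltf UMIs, a gene of the secondary granules of later precursors, were at 164, and cells with at least 10 UMIs of Elane and Mpo, the primary granule genes of early precursors, at 92.5.

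Igf2r, the clearance receptor (chr17:12682406-12769664, minus strand), was likewise broad. It lay between 56.7 CPM in the articular and 84.6 in the stroma gate in 7 gates, and no interval of neighbouring gates in that stretch left out 0. The endothelial gate, at 28.9 (18.7 to 42.7), and the Ptprc gate, at 27.6, were lower. In blood, T cells were at 51.0, neutrophils at 42.9, B-lineage cells at 22.3, macrophages at 18.0 and plasmacytoid dendritic cells at 6.10. Early Elane and Mpo precursors had 20.1 and Ltf cells 53.0, a log2 ratio of -1.39 (-1.71 to -1.09).

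**Figure D2:**
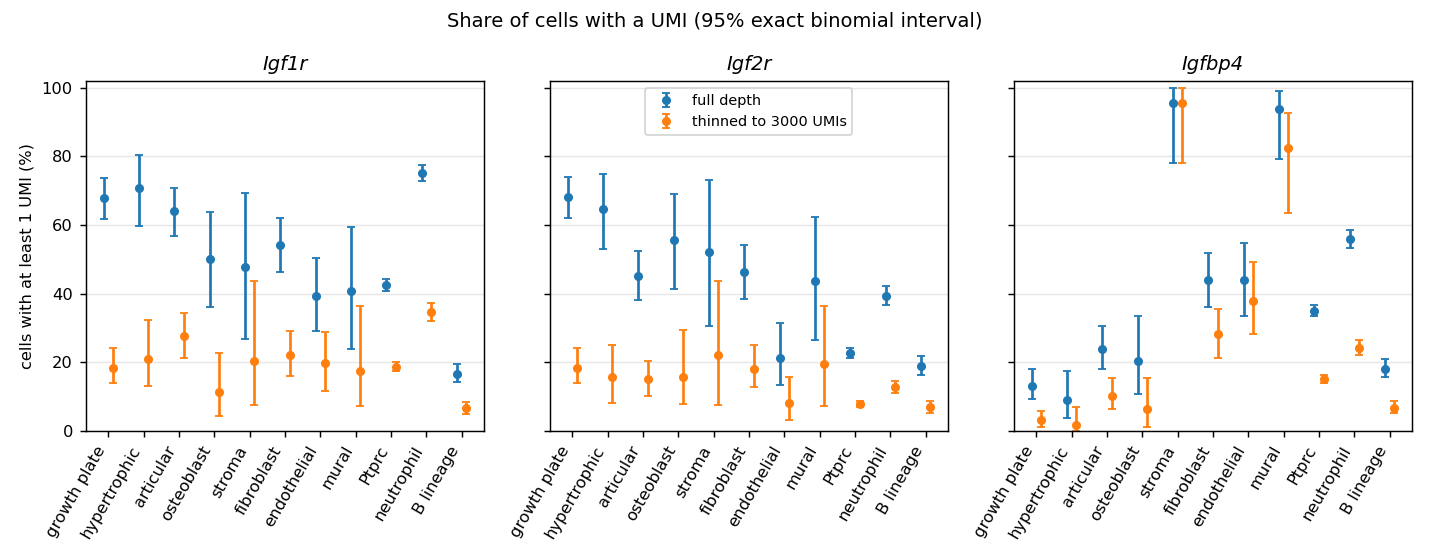
Share of cells with at least 1 UMI of Igf1r, Igf2r or Igfbp4 in the 9 gates and in the neutrophil and B-lineage gates, at full depth (blue) and with every cell thinned to 3000 UMIs (orange), with exact 95% binomial intervals. Thinning lowers the growth-plate share of Igf1r from 67.9% to 18.4% but leaves Igfbp4 in 95.7% of stroma cells.

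The proximal promoters of the 4 binding protein genes with the most UMIs are shown so that they can be set beside the levels given next. Igfbp4, Igfbp5 and Igfbp7 were highest in the stroma and mural gates, and Igfbp6 in the fibroblast gate. The sequences are those upstream of the RefSeq start in GRCm38.p6, 250 bases each, read along the gene's strand, with 19 bases of the Igfbp5 window that lie in an annotated exon left out. Capitals mark the TATA box letters TATAAA, the CCAAT box and the GC box letters GGGCGG on either strand. Igfbp4 is at chr11:99040994-99041243 (plus), Igfbp5 at chr1:72874885-72875115 (minus), Igfbp6 at chr15:102143936-102144185 (plus) and Igfbp7 at chr5:77408046-77408295 (minus).

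Igfbp4: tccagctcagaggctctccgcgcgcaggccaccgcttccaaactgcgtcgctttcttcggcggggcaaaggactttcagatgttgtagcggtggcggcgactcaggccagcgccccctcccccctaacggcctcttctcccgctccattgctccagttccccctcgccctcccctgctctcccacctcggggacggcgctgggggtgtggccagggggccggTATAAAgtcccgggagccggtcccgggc
Igfbp5: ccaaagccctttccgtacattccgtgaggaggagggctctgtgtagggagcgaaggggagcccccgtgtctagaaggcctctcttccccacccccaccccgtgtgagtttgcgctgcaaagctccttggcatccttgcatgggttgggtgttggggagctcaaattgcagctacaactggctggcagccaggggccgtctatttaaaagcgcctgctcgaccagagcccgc
Igfbp6: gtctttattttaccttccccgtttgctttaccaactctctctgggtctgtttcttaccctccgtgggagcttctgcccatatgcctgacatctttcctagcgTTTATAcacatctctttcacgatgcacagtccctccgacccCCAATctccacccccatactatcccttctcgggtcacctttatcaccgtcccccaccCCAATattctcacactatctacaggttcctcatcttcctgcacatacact
Igfbp7: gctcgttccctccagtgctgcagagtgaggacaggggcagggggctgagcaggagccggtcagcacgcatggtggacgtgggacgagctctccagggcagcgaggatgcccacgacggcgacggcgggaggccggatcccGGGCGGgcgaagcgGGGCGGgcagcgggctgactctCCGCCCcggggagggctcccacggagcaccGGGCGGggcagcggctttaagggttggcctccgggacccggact

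The Igfbp4 window held 1 TATAAA, whose first base lay 28 bases before the start. Igfbp6 had 1 match to TATAAA on the reverse strand and 2 to CCAAT, Igfbp7 had 4 to GGGCGG, and Igfbp5 had none of the 3 motifs. The GC content was 69.2% for Igfbp4, 60.6% for Igfbp5, 49.6% for Igfbp6 and 74% for Igfbp7. Over 32851 windows of the same length, TATAAA was present in 12.4%, the CCAAT box in 33.8% and the GC box in 32.7%. The matches describe these windows only.

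Igfbp4, which binds IGF1 and IGF2 and holds them off the receptor until PAPP-A cuts it, lies at chr11:99041244-99054392 on the plus strand and was concentrated in the stroma. The stroma gate had 5479 CPM (5168 to 5802), with the gene in 22 of 23 cells at 0 to 120 UMIs per cell and a median of 43. Mural cells had 1071 (961 to 1190; 30 of 32 cells), endothelial cells 577 (527 to 630; 39 of 89) and fibroblasts 234 (214 to 255; 72 of 164). Chondrocytes and osteoblasts were far below these, at 43.1 in the articular, 23.1 in the osteoblast, 13.6 in the growth-plate and 8.11 in the hypertrophic gate, where 56.2% of the UMIs came from 1 cell. The growth-plate and hypertrophic levels could not be told apart, and the other neighbours in the order were separated beyond counting error. In the osteoblast gate, however, 38.2% of the 34 UMIs came from 1 cell. The 42 endothelial cells without a Ptprc UMI were at 1077 (975 to 1187).

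Igfbp4 was also found in nearly all early granulocyte precursors. In cells of the neutrophil gate with at least 10 UMIs of Elane and Mpo, 233 of 235 cells (99.1%) held Igfbp4, at 0 to 16 UMIs per cell with a median of 5, and the level was 255 CPM (241 to 270). In Ltf cells 50.8% of 1007 cells held it, at 88.6 (83.6 to 93.8). The log2 ratio was 1.53 (1.41 to 1.64). The Ptprc gate as a whole was at 93.2, macrophages at 111, B-lineage cells at 45.0, T cells at 37.7, plasmacytoid dendritic cells at 34.3 and osteoclasts at 25.1. Cycling growth-plate cells had 26.2 against 8.79 in the others, from 41 and 36 UMIs, and the log2 ratio of the latter over the former was -1.57 (-2.26 to -0.89).

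Igfbp5, a binding protein held in bone matrix (chr1:72857932-72874884, minus strand), lies 5457 bases from Igfbp2. Its order resembled that of Igfbp4 at the top. The stroma was at 4115 CPM (3847 to 4397; 21 of 23 cells, 0 to 87 UMIs, median 41), the mural gate at 1948 (1799 to 2106; 30 of 32) and the fibroblast gate at 1424 (1376 to 1474; 104 of 164, up to 295 UMIs in 1 cell). The articular gate followed with 651 (78 of 197 cells) and the endothelial gate with 255, of which 39.5% came from 1 cell. Osteoblasts were at 39.4, and 57 of their 58 UMIs lay in the 29 cells outside the growth-plate gate. The Ptprc gate was at 14.5, the hypertrophic at 7.60 and the growth-plate gate at 3.00, with 17 UMIs over 243 cells.

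Igfbp4 and Igfbp5 were found together in 21 of 23 stroma cells (91.3%, 95% interval 72.0% to 98.9%) and in 28 of 32 mural cells (87.5%). At 3000 UMIs per cell the shares were 88.7% and 71.0%. The pair was in 48 of 164 fibroblasts and in 1 of 243 growth-plate cells. Igf1 and Igfbp4 were likewise together in 21 of 23 stroma cells. Igf1 and its receptor gene Igf1r were both seen in 9 of 23 stroma cells, 29 of 243 growth-plate cells and 10 of 66 macrophages, and depth limits these shares, since thinning lowered the stroma share from 39.1% to 13.3%.

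**Figure D3:**
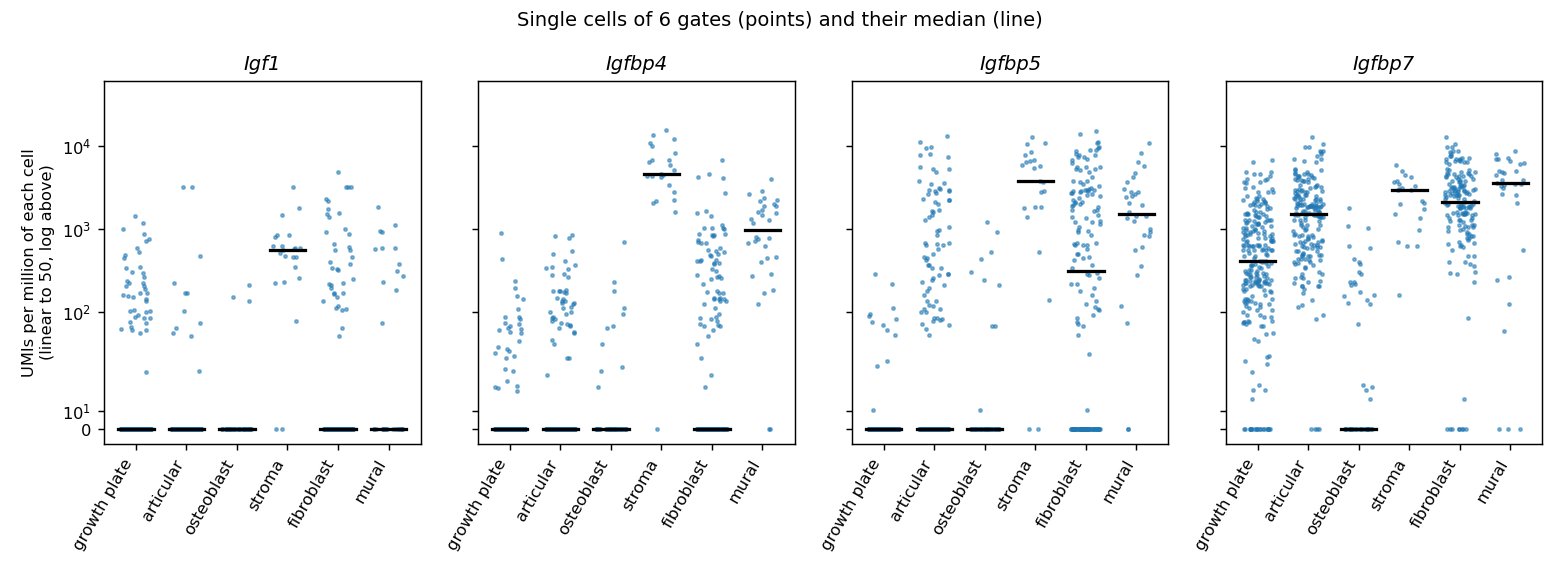
Each point is 1 cell of 6 gates, with its CPM of Igf1, Igfbp4, Igfbp5 or Igfbp7 (axis linear to 50 and logarithmic above), and the bar is the gate's median. Nearly all stroma cells lie above 1000 for Igfbp4, whereas the growth-plate, articular, osteoblast and fibroblast medians are at 0.

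Igfbp6, which binds IGF2 more tightly than IGF1 (chr15:102144362-102149511, plus strand), marked the fibroblast gate and was close to absent from the stroma. The fibroblast gate was at 1051 CPM (1009 to 1094), with 121 of 164 cells positive at 0 to 198 UMIs and a median of 6. The articular gate was at 382 (360 to 406; 78 of 197 cells) and the mural gate at 247 (196 to 307; 7 of 32 cells). The endothelial, hypertrophic, Ptprc, growth-plate, stroma and osteoblast gates lay between 2.71 and 9.26, neighbours among them could not be told apart, and the stroma held 1 UMI in 23 cells. The osteoclast gate had 311, all 198 UMIs of it in 1 cell.

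The articular gate was a mixture for Igfbp5 and Igfbp6, since 81 of its 197 cells also passed the fibroblast gate. In those 81 cells Igfbp6 was at 854 CPM (801 to 909; 69.1% of cells), against 54.7 (44.0 to 67.2; 22 of the cells) in the 116 articular cells outside the fibroblast gate, a log2 ratio of 3.96 (3.65 to 4.29). Igfbp5 was at 1355 against 162, a log2 ratio of 3.07 (2.88 to 3.26). For Igf1 and Igfbp4 the fibroblast cells outside the articular gate stood apart instead, with Igf1 at 266 against 51.7 in the shared cells and Igfbp4 at 420 against 51.7. These overlaps were examined after values had been seen.

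Igfbp7, a low-affinity IGF-binding matrix protein (chr5:77349240-77408041, minus strand), was found in every gate and at its lowest in blood. It was at 3176 CPM (2985 to 3377) in the mural, 2657 (2442 to 2885; 23 of 23 cells) in the stroma, 2436 in the fibroblast, 1956 (193 of 197 cells) in the articular, 1120 in the endothelial, 639 (223 of 243 cells) in the growth-plate, 385 in the hypertrophic, 131 in the osteoblast and 54.8 in the Ptprc gate. All these neighbours were separated beyond counting error, but the growth-plate and hypertrophic gates changed places without the 43 cells they share, at 796 and 949. Of the Ptprc cells 4.78% held Igfbp7, and cells that passed the Ptprc gate and no other were at 3.68, so that the Ptprc value rested mostly on cells that also passed another gate.

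Within the growth-plate gate, Igfbp7 was higher in Ucma cells and lower in hypertrophic cells. Growth-plate cells with at least 5 Ucma UMIs were at 777 and the others at 308, a log2 ratio of 1.33 (1.20 to 1.47). Growth-plate cells that were also hypertrophic were at 175 (154 to 198), against 796 (770 to 824) in those that were not, a log2 difference of 2.18 (2.00 to 2.37). Igfbp7 was detected in 88.4% and 92.5% of these cells, so the difference lay in the count per cell, with a median of 3 against 11.5 UMIs. How far the Ucma split and the hypertrophic split share cells was not tested.

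**Figure D4:**
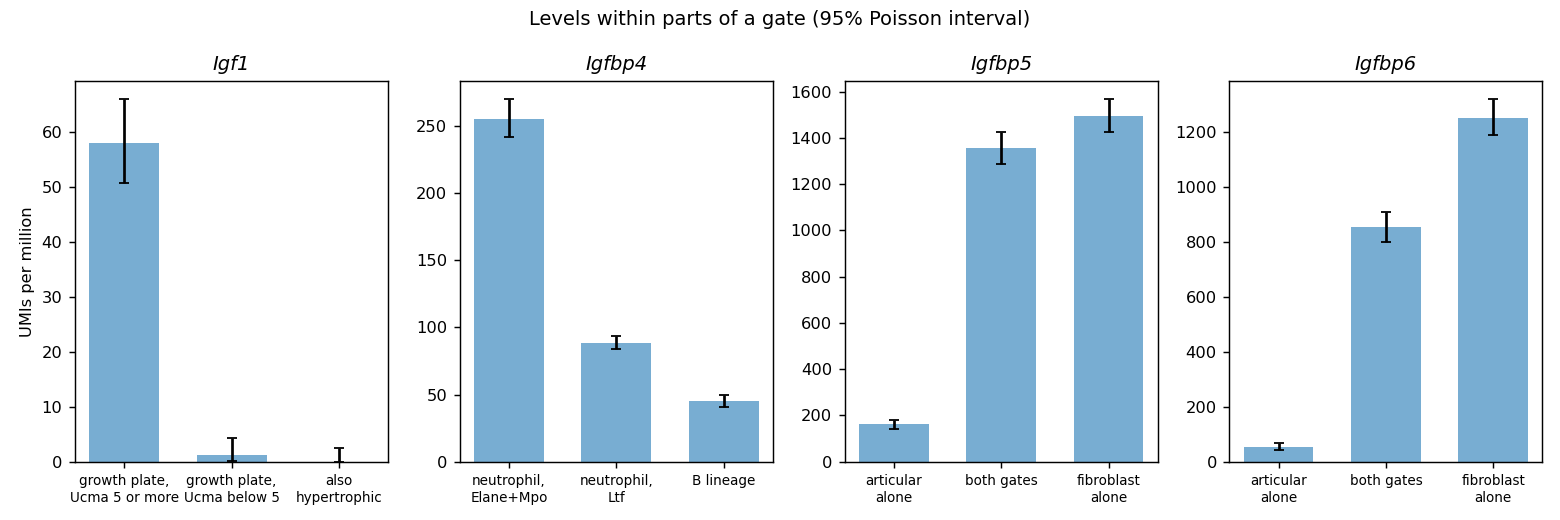
Levels of Igf1, Igfbp4, Igfbp5 and Igfbp6 within parts of the gates, as bars of CPM from 0 with 95% Poisson intervals; the bar labelled also hypertrophic shows growth-plate cells that pass the hypertrophic gate too. Igf1 is at 57.9 in Ucma cells of the growth plate and at 1.19 in the others, and Igfbp4 is at 255 in Elane and Mpo precursors and 88.6 in Ltf cells.

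Igfbp2 and Igfbp3 were sparse. Igfbp2 (chr1:72824503-72852474, plus strand) had 30 UMIs in all, 21 of them in 8 of the 89 endothelial cells, at 24.3 CPM (15.1 to 37.2), and none in the growth-plate, hypertrophic, articular or stroma gate. Igfbp3, the main carrier of IGF1 in blood plasma (chr11:7206086-7213923, minus strand), had 98 UMIs. It was at 160 in the stroma, where 76.5% of the UMIs were in 1 cell and the level without it was 39.9, at 67.9 in the mural gate, where 77.3% were in 1 cell, and at 62.5 (47.0 to 81.6) in 13 of 89 endothelial cells. The endothelial cells without Ptprc were at 140.3 for Igfbp3 and 52.9 for Igfbp2.

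Igf1, Igfbp4, Igfbp5 and Igfbp7 were far higher in the marrow stroma than in osteoblasts. Of 6 members with enough UMIs, 5 were called higher in the 23 stroma cells than in the 54 osteoblasts, where 33.4% of 3821 tested genes were called in either direction, 21.3% higher in the stroma and 12.1% in osteoblasts. The log2 ratio was 7.89 (7.40 to 8.43) for Igfbp4, 7.41 (6.15 to 9.06) for Igf1, 6.71 (6.32 to 7.12) for Igfbp5 and 4.34 (4.10 to 4.59) for Igfbp7. Igf1r was called at 1.02 (0.15 to 1.82), just past 2-fold, and lost its call with a floor of 1000 genes, with doubled gate thresholds and in the mean over cells, while Igf2r was at 0.50 (-0.32 to 1.25). The median over the 6 members was 5.53, against 0.24 over all genes tested. The osteoblast gate carried growth-plate marker RNA at 6151 CPM in sum, against 23.5 in the stroma, and 25 of its 54 cells passed the growth-plate gate. Neutrophil RNA summed to 2036 CPM in the stroma and 9307 in the osteoblasts and erythroid RNA to 41144 and 24014, 4 of the 23 stroma cells passed the endothelial gate, and the part of these in the ratios was not tested. In cells that passed 1 gate only, the log2 ratio was 8.45 for Igfbp4, 5.32 for Igfbp5 and 6.04 for Igfbp7, and Igf1 had 64 UMIs in 15 of 15 stroma cells and 0 in 15 osteoblasts.

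The IGFBP protease gene Pappa moved in the same direction as Igfbp4. Of 26 tested genes among 45 listed for the pathway, 10 were called higher in the stroma and 3 in the osteoblasts. Pappa was at 498 CPM in 18 of 23 stroma cells and at 1.36 in osteoblasts, a log2 ratio of 8.52 (6.63 to 11.59). Esm1, which encodes a secreted proteoglycan with an IGFBP-like domain, had 8.71, the growth hormone receptor gene Ghr 3.48 (2.75 to 4.25), the signalling subunit gene Pik3r1 2.56, Itgav 1.70, the endocytic receptor gene Lrp1 1.44, the receptor substrate genes Irs2 1.43 and Irs1 1.14, the protease gene Htra1 1.39 and the growth hormone signalling kinase gene Jak2 1.28. Higher in osteoblasts were Wisp1 (-3.45), Kazald1 (-3.07) and Stc2, which encodes an inhibitor of PAPP-A and had 66 UMIs in osteoblasts and 0 in the stroma. At the limit of 3 counts Stc2 was 3.17-fold lower in the stroma, and the interval of its log2 ratio ended at -1.33. Of these 66 Stc2 UMIs, 65 lay in the 25 osteoblasts that also passed the growth-plate gate.

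Hypertrophic cells outside the growth-plate gate held no Igf1 UMI, and Igf1 was the 1 tested member called between them and growth-plate cells. Of these 36 cells, 35 passed the articular gate, so hypertrophic cells of the articular gate were in effect compared here. Igf1 was sparse in the articular gate as well, in 12 of its 197 cells. The 116 articular cells outside the fibroblast gate held it in 6 cells, at 10.9 CPM. The 36 cells held 0 Igf1 UMIs and the 200 growth-plate cells 55.2 CPM, 9.87-fold more at the limit that 3 counts allow. The interval of the log2 ratio ended at -2.99. With Igf1, 1 of 5 members was called, near the share over all genes. Of 7260 tested genes 21.1% were called, 7.58% higher and 13.5% lower in the hypertrophic cells. The log2 ratio was 0.58 (0.14 to 0.99) for Igf1r, -0.23 (-0.80 to 0.29) for Igf2r, 0.15 (-0.97 to 1.11) for Igfbp4 and 0.25 (0.12 to 0.39) for Igfbp7, and the median of the 5 was 0.15, against -0.19 over all genes. Of the 10 Igfbp4 UMIs, 9 lay in the 1 cell outside the articular gate. Igfbp7 was at 949 CPM in the 36 cells, against 175 in the 43 hypertrophic cells of the growth-plate gate. The stroma markers summed to 978 CPM in the 36 cells and 34.8 in the growth-plate cells, erythroid RNA to 22518 and 8689, and neutrophil RNA to 537 and 5708, and their part in these values was not tested. Igfbp5 (12 and 14 UMIs) and Igfbp6 (15 and 34) had too few counts.

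Of 30 tested pathway genes, 4 were called higher in these hypertrophic cells and 11 lower. The comparison of articular with growth-plate cells given next shares these 35 cells and most of the growth-plate cells. Stc2 (log2 ratio 2.91), the insulin- and IGF-restrained transcription factor gene Foxo1 (2.04, 429 against 104 CPM), Ctgf (1.52) and Pappa (1.39) were higher. Of the 21 Pappa UMIs in the hypertrophic cells, 47.6% lay in 1 cell. H19 had 0 against 744 UMIs, 31.5-fold lower at the limit of 3 counts, with the interval of the log2 ratio ending at -4.68. Pappa2, which encodes PAPP-A2, had 0 against 83, 3.51-fold lower at that limit, with the interval ending at -1.48. Irs1 (-3.43), Adam12 (-2.11) and the receptor-binding adaptor genes Grb10 (-3.27) and Grb14 (-1.91) were lower, as were Stat5a (-1.64), Kazald1 (-1.34), Stat5b (-1.13), Akt1 (-1.07) and Akt2 (-1.05). For Kazald1, 299 of the 319 UMIs of the growth-plate gate lay in the 25 cells that also passed the osteoblast gate. The 218 growth-plate cells outside the osteoblast gate were at 4.22 CPM, below the 29.8 of the 36 hypertrophic cells.

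In the 43 hypertrophic cells of the growth-plate gate, Grb14, Pappa, Akt2, Htra1 and Lrp1 had the opposite direction, with both intervals leaving out 0. For Pappa the 36 hypertrophic cells outside that gate held 21 UMIs in 7 cells, 47.6% of them in 1 cell. Its direction without that cell was not tested. Against the same 200 growth-plate cells, which both comparisons share, Grb14 was higher in these 43 cells, at 260 against 21.1 CPM (log2 ratio 3.63, interval 3.29 to 3.98), where the 36 cells held 3 UMIs. Pappa was lower, with 2 UMIs against 63 (-3.42, interval -6.50 to -1.51), and Akt2 was at 152 against 92.6 (0.71, interval 0.47 to 0.95). Foxo1 (-0.27, interval -0.57 to 0.02), Ctgf (0.23), Irs1 (-0.53) and Grb10 (-0.26) stayed under 2-fold. Stc2 was at 2.34 (2.01 to 2.68), the growth hormone receptor gene Ghr at 1.34 (0.77 to 1.91), Stat5a at -5.39, H19 at -4.81, Stat5b at -2.26, Adam12 at -1.36 and Akt1 at -1.12. Htra1 was at -1.67 (-2.05 to -1.32) in the 43 cells and 0.99 (0.74 to 1.24) in the 36, and Lrp1 at -0.66 and 0.49. Kazald1 had 1 UMI against 318 and Pappa2 0 against 83. As given above, 299 Kazald1 UMIs of the growth-plate gate lay in cells that also passed the osteoblast gate. The split of the hypertrophic cells was examined after values had been seen.

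Articular-type cells exceeded growth-plate cells in every binding protein tested. Of 7 members, 4 were called, all higher in the articular gate, where 19.7% of 8821 tested genes were called, 10.7% higher and 8.97% lower. Igfbp5 was at 734 against 3.18 CPM, a log2 ratio of 7.85 (7.17 to 8.63), Igfbp6 at 431 against 6.36 (6.08, interval 5.59 to 6.62), Igfbp4 at 44.5 against 12.5 (1.83) and Igfbp7 at 2119 against 636 (1.74). Much of the articular Igfbp5 and Igfbp6 lay in the 81 cells that also passed the fibroblast gate, and the 116 others were at 162 CPM for Igfbp5 and 54.7 for Igfbp6. The ratios of Igf1r (0.80), Igf2r (-0.34) and Igf1 (-0.56) stayed under 2-fold. Erythroid RNA summed to 26730 CPM in the articular and 9927 in the growth-plate cells, neutrophil RNA to 14114 and 6349, and stroma markers to 369 and 27.3, and their part in these values was not tested. In cells that passed 1 gate only, Igfbp7 fell below 2-fold, at 0.68 (0.57 to 0.80), Igf1 passed it at -2.83 (-4.17 to -1.77), and Igfbp5 was at 7.09. Of 34 tested pathway genes, 6 were higher in the articular gate, namely Nov (2.66), Foxo1 (1.59), Htra1 (1.51), Adam9 (1.42), Ctgf (1.12) and Pappa (1.11), and 7 were lower, namely Grb14 (-3.21), Pappa2 (-2.73), H19 (-2.64), Grb10 (-1.99), Adam12 (-1.91), the growth hormone signal inhibitor gene Socs2 (-1.76) and Akt2 (-1.08). For Nov, 1 cell held 53.7% of the 41 articular UMIs and 1 cell 57.1% of the 14 growth-plate UMIs. For Grb14, 374 of the 463 UMIs of the growth-plate gate lay in the 43 cells that were also hypertrophic. The 200 other growth-plate cells were at 21.1 CPM for Grb14, against 9.31 in the articular cells.

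Osteoblasts against growth-plate cells gave 4 called members of 6, split between directions, where 26% of 7555 tested genes were called, 6.13% higher and 19.9% lower in osteoblasts. The 29 osteoblasts outside the growth-plate gate were lower in Igf1 (8.99 against 49.1 CPM, log2 ratio -2.45, interval -4.09 to -1.21) and in Igfbp7 (104 against 734, log2 ratio -2.81, interval -3.21 to -2.44). They were higher in Igfbp5 (log2 ratio 4.93, interval 4.11 to 5.83) and Igfbp4 (1.86, interval 1.22 to 2.48), where 29.8% and 40.6% of the osteoblast UMIs came from 1 cell. Igf1r was at -0.93 (-1.64 to -0.30) and Igf2r at -0.23. Of 31 tested pathway genes, 3 were higher in osteoblasts, namely the IGFBP-like gene Kazald1 (6.92), Adam12 (2.99) and Wisp1 (2.50). The 11 lower ones included Stc2 (-4.90), Ctgf (-3.01), Stat5b (-1.93), Akt2 (-1.91), Grb10 (-1.38), Htra1 (-1.33), Grb14 (-1.02) and Foxo1 (-1.02), and the remaining 3, Pappa, Pappa2 and H19, had 0 UMIs in these osteoblasts. For Grb14 the direction rested on growth-plate cells that were also hypertrophic. The 200 growth-plate cells outside the hypertrophic gate were at 21.1 CPM, below the 34.2 of the 29 osteoblasts. The osteoblasts held erythroid RNA at 53777 CPM in sum against 10796 in the growth-plate cells, neutrophil RNA at 13204 against 5837 and stroma markers at 133 against 20.03, and their part in these values was not tested.

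Fibroblasts and stroma were set apart by Igfbp6 on the fibroblast side and by Igf1, Igfbp4 and Igfbp5 on the stroma side. These 4 of 7 members were called, where 24.7% of 5548 tested genes were called, 10.5% higher in fibroblasts and 14.2% in the stroma. Igfbp6 was at 1059 CPM in 162 fibroblasts against 1 UMI in 21 stroma cells, a log2 ratio of 7.70, with an interval from 5.22 upwards that a single UMI leaves wide. Igfbp4 was at -4.80 (-4.97 to -4.64), Igf1 at -1.80 (-2.12 to -1.46) and Igfbp5 at -1.50 (-1.62 to -1.39). Igfbp7 (-0.14), Igf1r (0.03, interval -0.70 to 0.87) and Igf2r (-0.20) were not called. Growth-plate markers summed to 2077 CPM in the fibroblasts and 20.4 in the stroma, osteoblast markers to 19785 and 1987, and neutrophil RNA to 6453 and 2120, and their part in these values was not tested. In cells of 1 gate only, the fibroblasts had more Igf1, at 407 CPM in 27 of 52 cells, and the calls of Igf1 (-0.27, interval -0.69 to 0.16) and Igfbp5 (-0.41) were lost. Of 31 tested pathway genes, 14 were lower in fibroblasts, among them Pappa (-4.90), the growth hormone receptor gene Ghr (-2.52), Wisp2 (-2.90) and Esm1, with 0 UMIs against 113, and 7 were higher, among them Htra1 (1.44), Htra3 (1.33), Ctgf (1.42), Wisp1 (1.78), Kazald1 (1.65) and Nov, with 143 UMIs against 0.

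In vessels the mural cells held more of the called IGF genes than the endothelial cells. Of 6 members, 4 were called, all higher in the mural gate, where 31% of 3678 tested genes were called, 20% higher in endothelial and 11% in mural cells. The log2 ratio of endothelial over mural cells was -4.85 (-6.11 to -3.80) for Igfbp6, -3.57 (-3.85 to -3.29) for Igfbp5, -2.34 (-3.05 to -1.66) for Igf1 and -1.64 (-1.78 to -1.49) for Igfbp7, and Igfbp4 was just under 2-fold at -0.91 (-1.13 to -0.69). Few cells carried Igfbp6, with 8 UMIs in 2 of 87 endothelial cells, 87.5% of them in 1 cell, and 80 in 7 of 30 mural cells, 38.8% of them in 1 cell; without the cell with most UMIs the ratio was -4.21 (-5.50 to -3.12). The blood markers summed to 3645 CPM in the endothelial cells and 628 in the mural cells and neutrophil RNA to 37996 and 20064, while stroma markers were at 514 and 942 and growth-plate markers at 55.7 and 164. The part of the neutrophil, stroma and growth-plate RNA in these ratios was not tested. Without cells that held Ptprc, Igfbp7 lost its call at -0.69 (-0.84 to -0.54), Igfbp4 moved to -0.12 (-0.35 to 0.11), and Igfbp5 was at -2.48. Of 16 tested pathway genes, the insulin receptor gene Insr (1.98) was higher in endothelial cells and 6 were lower, namely Htra1 (-4.25), Nov (-3.81), Ctgf (-3.75), Lrp1 (-3.21), Irs2 (-2.23) and Adam9 (-2.11).

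**Figure D5:**
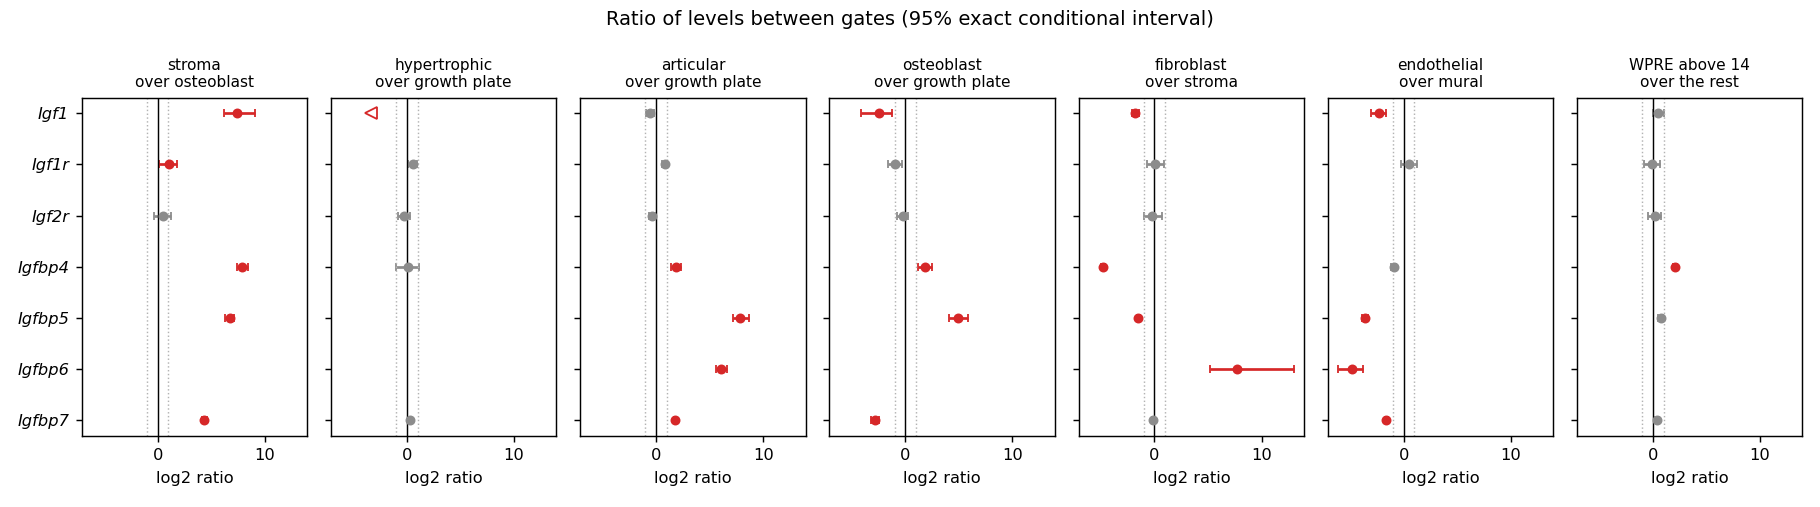
Log2 ratio of the level in the population named at the top of each panel over that named below it, with exact conditional 95% intervals, for members with at least 50 UMIs; red marks a call, the open triangle the bound for Igf1 at 0 UMIs in hypertrophic cells, and dotted lines 2-fold. In the stroma panel, Igf1, Igfbp4 and Igfbp5 lie beyond 6, while the points of Igf1r and Igf2r lie near the 2-fold lines or inside them wherever they are drawn. Igf2r has no point in the endothelial panel, where its 25 and 23 UMIs were too few.

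HC-derived cells were compared with the rest in the osteoblast and stroma gates together. A cell with over 14 UMIs of WPRE, the viral element at the end of the tdTomato transcript, was called HC-derived, which gave 27 cells against 50. Igfbp4 was the 1 member of 6 called, where 10.2% of 3821 tested genes were called, 3.98% higher and 6.25% lower in the HC-derived cells. Its level was 1519 CPM with over 14 WPRE UMIs and 362 CPM in the rest, giving a log2 ratio of 2.07 (1.90 to 2.24). Igfbp5 was at 0.72 (0.53 to 0.91), Igf1 at 0.52 (-0.02 to 1.06), Igfbp7 at 0.34, Igf2r at 0.19 and Igf1r at -0.06 (-0.84 to 0.69). The groups differed in makeup, with 10 stroma cells of 27 against 13 of 50, in neutrophil RNA, which summed to 470.3 CPM against 11806, in growth-plate markers, at 2159 against 6767, and in stroma markers, at 1096 against 625. Their part in the result was not tested. Of 26 tested pathway genes, Pappa (1.81) and Jak2 (1.56) were higher and Stc2 (-1.86) was lower in the HC-derived cells. All 7 Stc2 UMIs of the HC-derived cells and 58 of the 59 of the others lay in osteoblasts that also passed the growth-plate gate, 6 and 19 cells.

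Within the stroma gate the Igfbp4 difference was smaller. The 10 HC-derived cells held 11 to 120 Igfbp4 UMIs each with a median of 83, and the 13 others 0 to 74 with a median of 30. The median depths were 9086 and 6613 UMIs. In CPM the levels were 7650.4 (7115 to 8215) and 3588 (3249 to 3954), a log2 ratio of 1.09 (0.92 to 1.27), and the cells of the groups overlapped. For Igf1 the levels were 495 in the HC-derived cells and 651 in the others (log2 ratio -0.39, interval -0.95 to 0.15), and for Igfbp7 2628 and 2683 (-0.03, interval -0.27 to 0.21), so that neither was separated. Igfbp5 was lower in the HC-derived cells by less than 2-fold, with 3618 against 4547 (-0.33, interval -0.53 to -0.13). Of the osteoblast gate, 17 cells were HC-derived and 37 were not. Igfbp7 was at 19.6 CPM (8.44 to 38.5) in the former and 174 (150 to 201) in the latter, a log2 ratio of -3.15, and Igfbp5 was at 70.9 and 27.2, a log2 ratio of 1.38, from 29 UMIs in each. Of the 29 in the other cells 17 lay in 1 cell, and without the cell with most UMIs the levels were 51.0 and 11.5. The growth-plate gate was also passed by 6 of the 17 HC-derived cells and 19 of the 37 others. The WPRE threshold mattered for Igfbp4, whose log2 ratio in both gates together was 0.70 with more than 4, 1.52 with more than 9 and 1.02 with more than 19 UMIs, and 0.74 in cells of 1 gate only.

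Across the 9 gates, the genes closest in pattern to each member were sought among 11814 genes with at least 100 UMIs, by Pearson's r of log2 levels. The gates share cells and differ in depth, so r is a description over 9 points. For Igf1 they were Tspyl2 (0.97), Mr1 (0.96) and Fbn1 (0.96). Those for Igfbp4 included Plscr3 (0.99) and Atf2 (0.98), and for Igfbp5 they were Slc4a2, Cbx6 (0.98) and Ecm1 (0.96). Igfbp6 was closest to Ssc5d, Steap3 (0.97) and Sema3e (0.96), and Igfbp7 to Cyth3 (0.99), Siae (0.98) and Clstn1 (0.97). The receptors, with their narrow range, were closest to Tbcc (0.99), March5 (0.92) and Nfkb1 (0.91) for Igf1r and to Pard3, Hoxa9 and Ift74 (0.98) for Igf2r. Among the members, r was 0.87 for Igf1 and Igfbp4, 0.85 for Igf1 and Igfbp5, 0.83 for Igfbp4 and Igfbp5, 0.82 for Igfbp5 and Igfbp7, and 0.81 for Igf1 and Igfbp7. It was 0.58 for Igfbp4 and Igfbp7 and 0.14 for Igfbp4 and Igfbp6.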

How the data were processed

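Droplet single-cell RNA-seq was deposited as raw counts of UMIs per gene and barcode, which the authors made with Cell Ranger 3.1.0 from an alignment to mm10. Seurat 3 is also named in the submitters' processing notes. No source used here gives the annotation release. Of 31053 gene identifiers, 30934 were matched to GENCODE M21 (GRCm38). WPRE was counted in a separate table of exogenous sequences. No barcode occurs more than once. The study's floor of 1600 genes was applied, and the mitochondrial limit of 20%, over which 12 kept barcodes lay, served only as an alternative. Called doublets (scanpy 1.11.5 Scrublet, expected rate 6%) numbered 261 (5.84%) and were kept. Kept barcodes held at least 3224 UMIs. Of them, 3799 passed a gate and 673 none. Summed counts were scaled per 1000000 UMIs (CPM) and given exact Poisson, Clopper-Pearson or conditional binomial 95% intervals, which cover counting error only. Where a count was 0, the limit of 3 counts is given. For shares at equal depth, cells were thinned to 3000 UMIs over 100 draws. Ratios used genes with at least 50 UMIs, likeness log2 of CPM plus 10. Blood gates were C1q at least 5 (macrophage), Siglech 3, Cd79a 3 (B lineage), Cd3 genes 2, S100a8 and S100a9 50 (neutrophil), and Ctsk and Acp5 20 (osteoclast), each as a minimum. All 10 members were named in each gate, with the 3 genes most alike and the called genes of a pathway list of 45, of which 5 Ccn symbols were found under older names. Members, gates and lists were chosen with earlier results of these data known. Promoters are from RefSeq (GRCm38.p6). That of Igf1 lies in an annotated exon and is not printed. The scripts were tested on simulated data. Python 3.11.15, numpy 2.4.6, scipy 1.17.1, pandas 2.3.3 and matplotlib 3.10.9 were used. The alternatives tried are given in the closing section. One gene that the rule for genes of like pattern selected is not reported here.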

Additional observations from a re-analysis of the deposited data

How the results depend on the processing

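Over all alternative settings, 177 of 347 recomputed ratios of members were of called values; 167 kept call and direction, 10 lost the call, 0 reversed, and 8 ratios gained a call. The setting that changed most was the restriction to barcodes that pass 1 gate, which removes cells and tested members. Under it, 2 members of articular over growth-plate cells were called (from 4), where Igfbp7 had lost its call and Igf1 had gained one. It left 2 called members of fibroblasts over stroma (from 4), 1 of endothelial over mural cells (from 4) and 0 of HC-derived over other cells (from 1). It gave no value for hypertrophic cells, since all of them pass another gate. For HC-derived cells, a WPRE threshold of 4 left 0 calls and the osteoblast gate alone gave 2. Leaving out called doublets or barcodes over 20% mitochondrial UMIs lost no call. The levels moved more often than the calls. Of the members' levels in the gates, 45 of 80 left their 95% interval in barcodes of 1 gate, 38 of 90 without the cell with most UMIs of the gene, 29 of 90 as the mean of per-cell CPM, 24 of 90 with doubled thresholds, 24 of 80 without Ptprc cells, 5 of 90 with a floor of 1000 genes, 3 of 90 without called doublets and 0 of 90 without barcodes over 20% mitochondrial UMIs. No paired analysis was possible because the 8 samples are 1 group whose barcodes carry no sample mark. Depth limits Igf2, Igfbp2 and Igfbp3, with 4, 30 and 98 UMIs in all, and the stroma gate, with 23 cells. The part of the overlapping gene Gm49394 in the Igf2 count was not tested.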
